A study of Rattus norvegicus with 12 samples.

Results

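The enzymes that carry mevalonate to squalene were followed in the corpus luteum (CL) of pregnant Wistar rats. They are Mvk, Pmvk, Mvd, Idi1, Fdps and Fdft1, chosen by gene symbol in the annotation of the array, and all 6 of 6 were measured, each by 1 probe set, among 14506 genes with a single symbol. RNA of 12 rats was hybridized to Affymetrix Rat Gene ST arrays, 1 rat per array and 3 rats per group. The AI+E2 rats received the aromatase inhibitor anastrozole (AI) at 1 mg/kg orally each day for 4 days from day 12 of pregnancy together with estradiol (E2) at 10 µg/day under the skin, and their CL were collected on day 16. The AI rats received the inhibitor alone at the same dose and for the same days, the VEH rats received the vehicle, and both were also collected on day 16. The day 12 rats were untreated and were collected on day 12. Aromatase makes estrogens from androgens, so the inhibitor acts on the whole animal and can alter androgens as well as E2, and hormone levels were not analysed here. Only AI+E2 rats are labelled with a treatment given under the skin. The day 12 and VEH rats differ in both day and vehicle treatment, which cannot be told apart.

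The enzymes described here turn mevalonate into isoprenoid units and join these to squalene. Mvk and Pmvk are kinases that phosphorylate mevalonate in turn, Mvd decarboxylates the product to isopentenyl diphosphate, Idi1 interconverts isopentenyl and dimethylallyl diphosphate, Fdps joins these units to farnesyl diphosphate, and Fdft1 (squalene synthase) condenses farnesyl diphosphate to squalene, the first step committed to sterols. Farnesyl diphosphate is also the branch point towards prenylated proteins, dolichol, ubiquinone and heme A. In the CL, cholesterol is the substrate of progesterone synthesis, and the rat CL draws much of it from lipoproteins as well as making it.

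In the data, all 6 enzymes were higher in AI than in VEH, and all 6 were lower in AI+E2 than in AI. With E2 added they did not end in one place: Pmvk, Mvd, Idi1 and Fdps stayed above VEH, while Mvk and Fdft1 lay below it. The t-test named in the paper's methods called this difference from VEH only for Idi1 and Fdps. From Mvk through Pmvk and Mvd to Idi1 the rise in AI grew along the order of the pathway, up to 10.9-fold for Idi1, and was smaller for Fdps and Fdft1. In VEH on day 16, 5 of the 6 were lower than on day 12, Mvk not passing the test, and Idi1 had the largest fall of all 14506 genes.

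The tissue label was checked first. Of 10 luteal markers listed, 8 were measured, and the steroidogenic genes Cyp11a1 and Star averaged 12.76 and 12.73 over the 12 arrays, and the LH receptor gene Lhcgr 12.46, on the log2 scale of RMA (the normalization the authors applied, described under the processing). Array medians lay between 6.51 and 6.56, correlations between arrays of 1 group between 0.992 and 0.998, and the median difference of all genes between 2 groups lay between -0.026 and 0.013 in the 6 comparisons, so member differences are given without correction for it. No pair of arrays held identical values. Labels state that each array is a separate animal.

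The sequences before the gene starts are shown because sterol-responsive promoters hold short motifs that can be read in them. RefSeq promoter sequences (rat build GRCr8) were matched for 4 of the 6 enzymes, Mvk, Mvd, Idi1 and Fdps, and not for Pmvk and Fdft1. Each line gives the 250 bases before the gene start, 5′ to 3′ on the strand of the gene, and capitals mark CCAAT boxes on either strand (CCAAT, or ATTGG where the box lies on the other strand) and, in Fdps, the letters TCACACGAG. The windows are chr12:47819504-47819753 for Mvk, chr19:67414975-67415224 for Mvd, chr17:66547525-66547774 for Idi1 and chr2:176804817-176805066 for Fdps, all on the minus strand.
Mvk: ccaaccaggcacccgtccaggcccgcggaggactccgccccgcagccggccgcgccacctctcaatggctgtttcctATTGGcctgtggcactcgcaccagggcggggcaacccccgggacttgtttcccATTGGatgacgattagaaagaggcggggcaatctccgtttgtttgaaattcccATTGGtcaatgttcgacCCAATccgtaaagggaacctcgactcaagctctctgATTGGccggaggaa
Mvd: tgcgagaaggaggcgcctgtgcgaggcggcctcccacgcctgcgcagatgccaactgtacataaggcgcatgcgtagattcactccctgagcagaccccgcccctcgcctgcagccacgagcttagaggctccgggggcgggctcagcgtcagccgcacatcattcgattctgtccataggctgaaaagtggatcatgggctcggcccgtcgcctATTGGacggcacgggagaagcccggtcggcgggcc
Idi1: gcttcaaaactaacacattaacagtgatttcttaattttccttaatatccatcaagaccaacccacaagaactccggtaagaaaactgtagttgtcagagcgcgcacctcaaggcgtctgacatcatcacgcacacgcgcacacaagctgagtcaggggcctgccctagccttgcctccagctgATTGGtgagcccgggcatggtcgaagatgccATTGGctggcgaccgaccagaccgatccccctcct
Fdps: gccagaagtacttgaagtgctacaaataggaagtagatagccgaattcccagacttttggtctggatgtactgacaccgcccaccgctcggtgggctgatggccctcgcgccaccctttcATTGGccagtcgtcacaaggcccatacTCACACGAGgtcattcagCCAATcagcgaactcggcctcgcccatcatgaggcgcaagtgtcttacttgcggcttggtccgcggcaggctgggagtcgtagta
The CCAAT box is a binding motif of NF-Y, a factor that acts beside the sterol-regulated SREBP factors on many promoters of this pathway. All 4 windows held it, 5 times in Mvk, once in Mvd and 2 times each in Idi1 and Fdps, against 34% of 33469 RefSeq windows of the same length with at least 1 match and 9.42% with 2 or more. In Mvk, 4 of the 5 boxes lay on the other strand and began 173, 120, 67 and 14 bases before the start, 53 bases apart each time. Only 0.179% of windows held 5 or more. The letters TCACACGAG, part of the sterol element described as SRE-3 in the rat farnesyl diphosphate synthase promoter, stood 103 to 95 bases before the Fdps start, between the CCAAT boxes that began 130 and 85 bases before it. They occurred in 33 of the 33469 windows (0.0986%). GC boxes (GGGCGG, in 30.5% of windows) were matched 2 times in Mvk, 2 times in Mvd and once in Fdps. The letters TCACNCCAC (the core of another sterol element, 0.974% of windows), GGTCA and TGACC with 3 bases between them (an estrogen response element, 0.0239%) and CACGTG (an E box, 5.59%) were not in these 4 windows. All motifs were searched on both strands, and overlapping matches were counted separately. A match is a run of letters only, and no binding was measured.

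**Figure D1:**
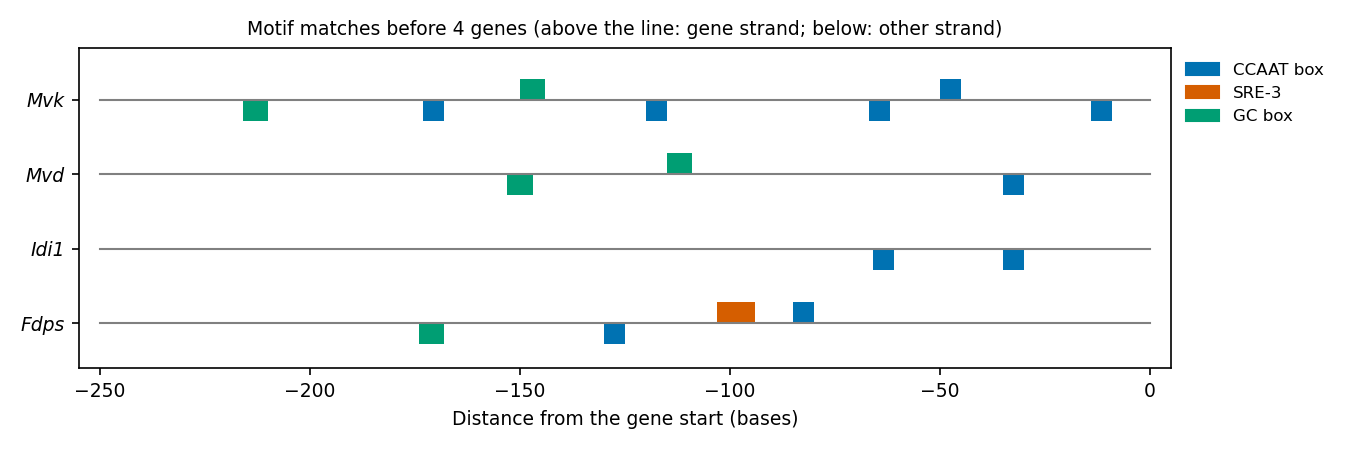
Motif matches in the 250 bases before the start of Mvk, Mvd, Idi1 and Fdps, with distance from the gene start in bases on the horizontal axis, blocks above the line for the strand of the gene and below it for the other strand. Mvk holds 5 CCAAT boxes, 4 of them 53 bases apart, and only Fdps of the 4 holds the SRE-3 letters.

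All 6 enzymes were called higher in AI than in VEH by limma at a Benjamini-Hochberg adjusted p under 0.05, where 5.91% of all genes were called higher, and none of the 6 had overlapping groups in AI and VEH, where 14.3% of all genes had no overlap in this direction. The median of the 6 log2 differences was 1.33, against 0.013 over all genes. Of the 6, 4 passed with at least a 2-fold difference, which 0.476% of all genes did. With 3 arrays against 3, the smallest p of an exact two-sided permutation test is 0.1, and each enzyme reached it in this comparison. Bulk tissue cannot tell fewer cells of a type from less RNA per cell. Markers of other cell types moved as well: of 11 endothelial markers measured, 9 were lower in AI (11% of all genes were) and none higher by limma (0 also at an unadjusted p under 0.05 and by the methods' t-test), and their summed level on the linear scale was 4578 to 5252 in AI arrays and 6659 to 6945 in VEH arrays. Of 11 smooth muscle and pericyte markers 5 were lower, and of 15 macrophage markers 4 were higher. Of 6 red blood cell markers 1 was lower (0 by the methods' t-test), near the 11% of all genes called lower. That count is no result about the red blood cell markers. Of 8 luteal markers 4 were higher and 1 lower, and their sum was 33690 to 35268 in AI and 29124 to 30073 in VEH. The methods' t-test called 0 of the endothelial, 1 of the smooth muscle and pericyte and 0 of the macrophage markers in these directions. The part of these markers in the enzyme differences was not tested.

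Mevalonate kinase, Mvk (probe set 10940535), had log2 values of 8.50, 8.47 and 8.36 in AI arrays, against 8.20, 8.14 and 8.15 in VEH arrays. The groups did not overlap, with a gap of 0.16 between the lowest AI and the highest VEH array. The difference was 0.28 ± 0.064 (SE, adjusted p = 0.00596), a 1.21-fold rise and the smallest of the 6. It lay inside the range of -0.58 to 0.40 that held the middle 95% of all genes, and the t-test named in the methods did not call it after adjustment (adjusted p = 0.0587).

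Phosphomevalonate kinase, Pmvk (probe set 10816817), had 8.29, 8.37 and 8.47 in AI arrays, against 7.39, 7.64 and 7.52 in VEH arrays. Every AI array lay at least 0.65 above every VEH array. The rise was 0.86 ± 0.078 (SE, adjusted p = 1.28e-06), or 1.82-fold.

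Diphosphomevalonate decarboxylase, Mvd (probe set 10811560), had 9.01, 9.05 and 8.76 in AI arrays, against 7.22, 7.42 and 7.47 in VEH arrays. The gap between the groups was 1.29. The rise was 1.57 ± 0.091 (SE, adjusted p = 9.78e-09), or 2.97-fold, the thirtieth largest of all genes.

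Isopentenyl diphosphate isomerase, Idi1 (probe set 10799241), had 10.61, 10.61 and 10.49 in AI arrays, against 7.06, 6.70 and 7.60 in VEH arrays. The AI arrays lay close together (SD 0.070), whereas the VEH arrays were the most spread of any enzyme in any group (SD 0.454), and the gap between the groups was 2.88. The rise was 3.45 ± 0.157 (SE, adjusted p = 6.37e-10), or 10.9-fold, with 2 of the 14506 genes above it.

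Farnesyl diphosphate synthase, Fdps (probe set 10940465), had 11.48, 11.52 and 11.60 in AI arrays, against 9.40, 9.59 and 9.58 in VEH arrays. The groups stood 1.89 apart. The rise was 2.01 ± 0.068 (SE, adjusted p = 2.52e-11), or 4.03-fold, at rank 17 of all genes.

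Squalene synthase, Fdft1 (probe set 10784454), had 11.29, 11.36 and 11.25 in AI arrays, against 10.37, 10.00 and 10.26 in VEH arrays. The groups stood 0.88 apart. The rise was 1.09 ± 0.099 (SE, adjusted p = 1.4e-06), or 2.13-fold, smaller than that of the 3 enzymes before it in the pathway.

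**Figure D2:**
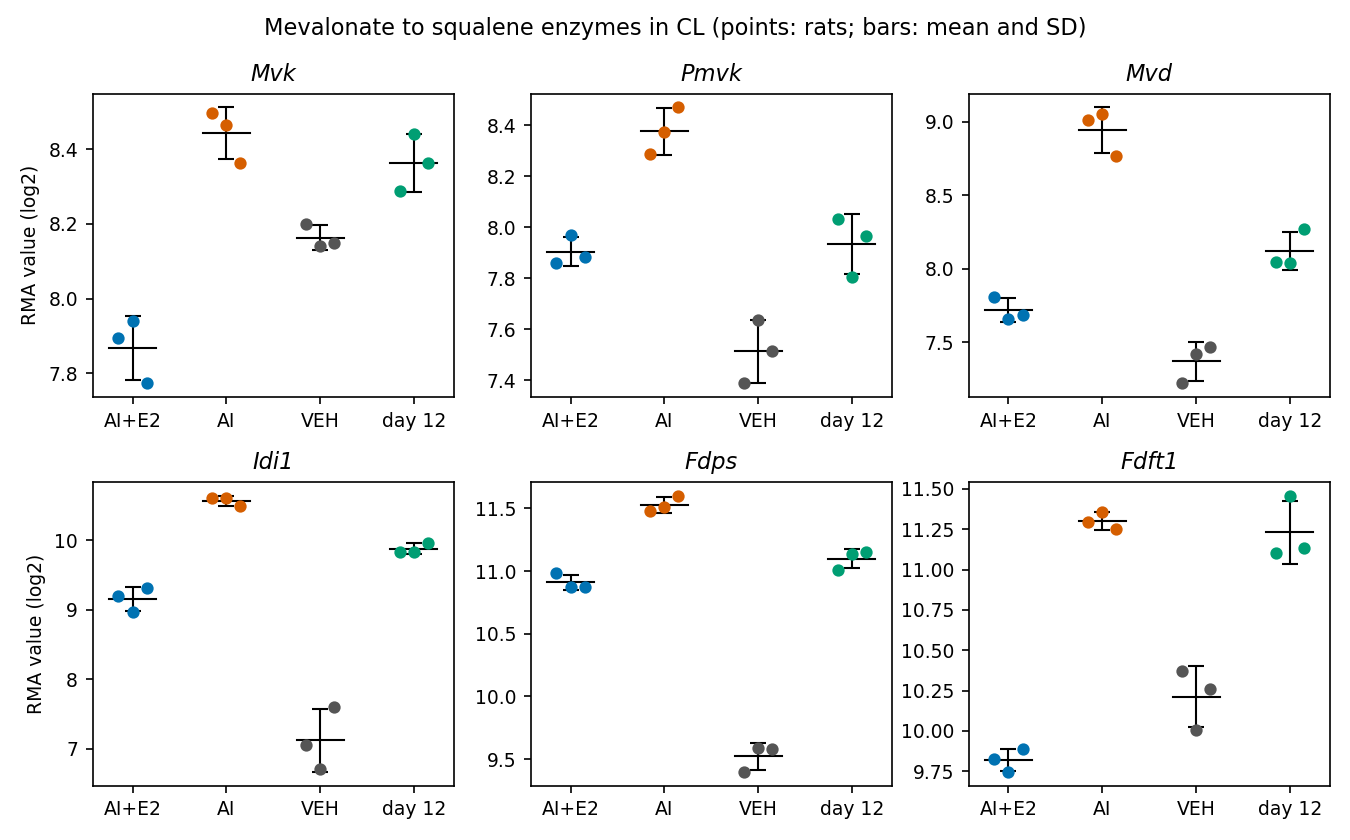
RMA log2 values of the 6 enzymes in every array (vertical axis, a separate scale per gene, not starting at 0), with AI+E2, AI, VEH and day 12 from left to right, points for rats and bars for the mean and SD of 3. AI arrays lie highest in every panel apart from overlap with day 12 in Mvk and Fdft1, and AI+E2 arrays lie above VEH for Pmvk, Mvd, Idi1 and Fdps and below VEH for Mvk and Fdft1.

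The differences between AI and VEH differed in size among the enzymes. Ordered by size they ran Idi1, Fdps, Mvd, Fdft1, Pmvk and Mvk, and neighbours in this order were compared through the log ratio of the pair in each array. The confidence intervals used the spread of the log ratios within groups, pooled over all 4 groups and 12 arrays. Idi1 exceeded Fdps by 1.44 (95% interval 0.96 to 1.92). Fdps exceeded Mvd by 0.44 (0.21 to 0.67), and Mvd exceeded Fdft1 by 0.48 (0.081 to 0.88). Pmvk exceeded Mvk by 0.58 (0.30 to 0.87). In these 4 pairs the log ratios of AI and VEH arrays did not overlap. Fdft1 and Pmvk overlapped, with a difference of 0.23 (-0.22 to 0.67), so their order is not settled. These intervals are not adjusted for the 5 pairs, nor for the order being taken from the same differences.

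In AI+E2 all 6 enzymes were called lower than in AI, where 4.13% of all genes were called lower, and no enzyme's groups overlapped, as for 15% of all genes in this direction. The median difference was -0.92, against -0.022 over all genes. This comparison shares its AI arrays with the preceding one, so its values stand beside those and are not independent of them. Of the marker lists, 1 of 11 endothelial markers was higher in AI+E2, where 8.65% of all genes were, and 0 lower, also at an unadjusted p under 0.05 (limma) and by the methods' t-test (sums 5013 to 5282 in AI+E2 and 4578 to 5252 in AI), and 1 of 8 luteal markers was higher (sums 33610 to 34203 in AI+E2 and 33690 to 35268 in AI). These endothelial and luteal counts are near the share of all genes and are no result about the 2 lists. Of 6 red blood cell markers 2 were lower in AI+E2. Their sums did not overlap, at 1096 to 1212 in AI+E2 and 1882 to 2498 in AI, and their part was not tested.

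Fdft1 had 9.82, 9.75 and 9.89 in AI+E2 arrays, against the AI values above, and fell by 1.48 on the log2 scale (SE 0.099, adjusted p = 1.02e-07), the largest fall of the 6, at rank 15 of all genes. AI+E2 was 2.79-fold lower. Idi1 had 9.20, 8.97 and 9.31 in AI+E2 arrays and fell by 1.41 (SE 0.157, adjusted p = 1.73e-05), and Mvd had 7.81, 7.66 and 7.68 and fell by 1.22 (SE 0.091, adjusted p = 2.43e-07). These 3 falls were each over 2-fold, which 0.303% of all genes passed. Fdps had 10.98, 10.88 and 10.87 in AI+E2 arrays and fell by 0.62 (SE 0.068, adjusted p = 1.41e-05). Mvk had 7.89, 7.94 and 7.77 and fell by 0.57 (SE 0.064, adjusted p = 1.66e-05), and Pmvk had 7.86, 7.97 and 7.89 and fell by 0.47 (SE 0.078, adjusted p = 6.65e-04). Ordered by the size of the fall, Fdps and Mvd were neighbours. They differed by 0.60 (95% interval 0.37 to 0.83), with no overlap of their log ratios. Every other neighbouring pair overlapped. The order came from these same differences, and the interval is not adjusted for that or for the number of pairs. No division of the enzymes into sets is drawn from it. The order of the falls was not that of the rises, since Fdft1 had the largest fall but ranked below Idi1, Fdps and Mvd by its rise.

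Against VEH, the AI+E2 rats had 4 of the 6 enzymes called higher and 2 called lower, where 6.11% of all genes were called higher and 6.9% lower, and none of the 6 had overlapping groups, where 13.6% of all genes had no overlap upward and 15.7% downward. Idi1 was 2.04 ± 0.157 higher in AI+E2 (SE, adjusted p = 5.5e-07), a 4.11-fold difference at rank 4 of all genes. Fdps was 1.39 ± 0.068 higher (adjusted p = 4.16e-09), or 2.62-fold. A 2-fold difference upward passed for 0.324% of all genes. Pmvk was 0.39 ± 0.078 higher (adjusted p = 0.00301) and Mvd 0.35 ± 0.091 higher (adjusted p = 0.0182). Mvk was lower by 0.29 (SE 0.064, adjusted p = 0.00546), and Fdft1 was lower by 0.39 (SE 0.099, adjusted p = 0.0149). The call of Mvd was lost without AI+E2 replicate 1 (0.30, adjusted p = 0.0953) or VEH replicate 1 (0.27, adjusted p = 0.0916). The call of Fdft1 was lost without AI+E2 replicate 1 (-0.40, adjusted p = 0.0506), AI+E2 replicate 2 (-0.36, adjusted p = 0.0643), VEH replicate 1 (-0.31, adjusted p = 0.0769) or VEH replicate 3 (-0.37, adjusted p = 0.0544). The methods' t-test called only Idi1 and Fdps of the 6 after adjustment, where it called 564 of all 14506 genes. In this comparison 6 of 11 endothelial markers were lower, with sums of 5013 to 5282 in AI+E2 and 6659 to 6945 in VEH, and 5 of 11 smooth muscle and pericyte markers were lower, with sums of 6841 to 7076 in AI+E2 and 7733 to 9474 in VEH. Of 6 red blood cell markers 3 were lower, with sums of 1096 to 1212 in AI+E2 and 2217 to 3529 in VEH. Of 15 macrophage markers 6 were higher, and of 8 luteal markers 3 were, with luteal sums of 33610 to 34203 in AI+E2 and 29124 to 30073 in VEH. The part of these markers was not tested.

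The 2 directions against VEH were also seen between enzymes. Mvd, the lowest of those above VEH, exceeded Mvk, the highest of those below, by 0.64 in the log2 difference (95% interval 0.39 to 0.89). The log ratios of the groups did not overlap. The pair was picked by these same differences, and its interval is not adjusted for that. Of the log2 difference between AI and VEH, 69.1% (SE 2.99) was left in AI+E2 for Fdps, 59.1% (SE 3.98) for Idi1, 45.3% (SE 7.82) for Pmvk and 22.1% (SE 5.25) for Mvd. For Fdft1 the share was -36.1% (SE 11.1) and for Mvk -105% (SE 40.6), negative because AI+E2 lay on the other side of VEH. The Mvk share rests on a small difference between AI and VEH and has the widest error. These shares divide 2 differences that both use the VEH arrays. They are shares on the log2 scale, and on the linear scale their sizes and order can differ. Turned back from the log2 means, Idi1 stood at 139 in VEH, 1519 in AI and 572 in AI+E2.

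**Figure D3:**
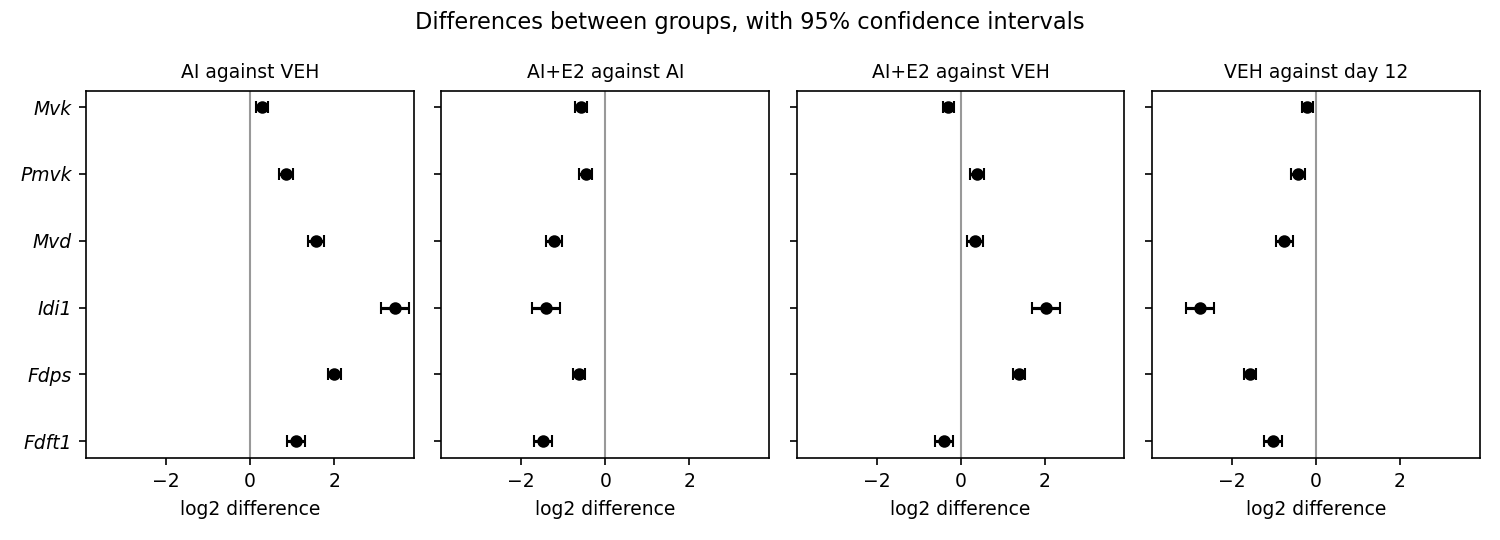
Log2 differences of the 6 enzymes (points) with 95% confidence intervals from the limma fit (bars), in 4 panels, each named for its pair of groups, with 0 marked by a line. All points lie above 0 in the first panel, all below 0 in the second, and on both sides of 0 in the third, where Idi1 (2.04) and Fdps (1.39) stand furthest to the right.

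On day 16, VEH rats had 5 of the 6 enzymes called lower than untreated rats on day 12, where 3.23% of all genes were called lower, and all 6 had no overlap, as 11.8% of all genes did in this direction. Idi1 had 7.06, 6.70 and 7.60 in VEH arrays, against 9.83, 9.83 and 9.97 on day 12, and fell by 2.76 (SE 0.157, adjusted p = 2.28e-08), or 6.75-fold, the largest difference of the 14506 genes in either direction. Fdps had 11.01, 11.13 and 11.15 on day 12 and in VEH fell by 1.58 (SE 0.068, adjusted p = 1.16e-09), at rank 12 of the falls. Fdft1 had 11.10, 11.46 and 11.13 on day 12 and fell by 1.02 (SE 0.099, adjusted p = 8.11e-06). These 3 falls were each over 2-fold, as for 0.193% of all genes. Mvd had 8.04, 8.04 and 8.27 on day 12 and fell by 0.75 (SE 0.091, adjusted p = 7.11e-05), and Pmvk had 8.03, 7.81 and 7.97 and fell by 0.42 (SE 0.078, adjusted p = 0.00246). Mvk had 8.29, 8.44 and 8.36 on day 12, and its difference of -0.20 ± 0.064 did not pass (adjusted p = 0.0615), although the groups stood apart. It passed when the arrays were quantile normalized again (-0.25, adjusted p = 0.022). Vascular markers stood the other way, with 9 of 11 endothelial and 8 of 11 smooth muscle and pericyte markers higher in VEH, where 6.91% of all genes were, and endothelial sums of 6659 to 6945 in VEH and 4799 to 5402 on day 12. Red blood cell markers had 2 of 6 higher and 1 lower, with sums of 2217 to 3529 in VEH and 1232 to 1992 on day 12. The part of these markers was not tested. The methods' t-test called 57 of all 14506 genes here, among them 1 of the 6 enzymes, Fdps. It called 0 of the endothelial and 1 of the smooth muscle and pericyte markers higher. For Idi1 its SE was 0.266, above the 0.157 of the limma fit, which pools the wide VEH spread with that of tighter groups.

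The AI and AI+E2 rats were also set against day 12. In AI, 4 enzymes were called higher than on day 12, where 3.3% of all genes were: Mvd by 0.82 (adjusted p = 4.34e-05), Idi1 by 0.69 (adjusted p = 0.0128), Pmvk by 0.44 (adjusted p = 0.00211) and Fdps by 0.43 (adjusted p = 8.91e-04). The Idi1 call was lost without AI replicate 1 (0.67, adjusted p = 0.0547). In the full fit the Idi1 SE of 0.157 is pooled over the groups and takes in the VEH spread (SD 0.454). The SDs of Idi1 were 0.070 in AI and 0.078 on day 12, and these groups stood 0.52 apart. Of the 6, 4 had no overlap, as 9.22% of all genes did in this direction. Mvk and Fdft1 overlapped between AI and day 12, with differences of 0.079 (95% interval -0.057 to 0.22) and 0.071 (-0.14 to 0.28). Of the 11 endothelial markers, 0 were called by limma, 0 passed an unadjusted p under 0.05 and 0 were called by the methods' t-test, where limma called 7.57% of all genes. In AI+E2, 4 enzymes were called lower than on day 12, where 4.58% of all genes were, and 5 had no overlap, as 16.3% of all genes did in this direction. Fdft1 was lower by 1.41 (SE 0.099, adjusted p = 3.34e-07), with 4 genes falling more, Idi1 by 0.72 (adjusted p = 0.00666), Mvk by 0.50 (adjusted p = 9.51e-05) and Mvd by 0.40 (adjusted p = 0.00813). Fdps did not overlap but did not pass (-0.19, adjusted p = 0.0877), passing after a second quantile normalization (-0.27, adjusted p = 0.0214), and Pmvk overlapped (-0.030, 95% interval -0.20 to 0.14). The methods' t-test called 0 of the 6 in AI against day 12, where 4 passed it unadjusted, and 1, Fdft1, in AI+E2 against day 12. Of all 14506 genes it called 45 in AI against day 12 and 362 in AI+E2 against day 12. Of the 11 endothelial markers, 0 were called in AI+E2 against day 12 by limma or the methods' t-test (2 at an unadjusted p under 0.05 in limma), where limma called 12.1% of all genes. Some macrophage markers were called higher in both. In AI these were 3 of 15, where 3.3% of all genes were called higher, and 12 were not called. Their sums were 5694 to 6130 in AI and 4803 to 5025 on day 12. In AI+E2 limma called 7 of 15 higher and 0 lower (1 lower at an unadjusted p under 0.05), with sums of 5726 to 5934. There 12.1% of all genes were called in either direction. The methods' t-test called 0 of these markers higher in AI and 2 in AI+E2. Luteal markers had 3 of 8 higher and 2 lower in AI, where 7.57% of all genes were called in either direction. In AI+E2 against day 12, 1 of 8 luteal markers was higher and 0 were lower (0 also at an unadjusted p under 0.05 and by the methods' t-test). This is near the 12.1% of all genes called there in either direction and is no result about the list. The part of these markers was not tested.

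The group means thus followed 2 orders, which differ in the places of AI+E2 and VEH. The methods' t-test called that difference only for Idi1 and Fdps. By limma, the calls of Mvd and Fdft1 were lost without single arrays. The places of AI+E2 and VEH are therefore less settled for Mvk, Pmvk, Mvd and Fdft1. For Pmvk, Mvd, Idi1 and Fdps the order from high to low was AI, day 12, AI+E2 and VEH, with day 12 and AI+E2 not separated for Pmvk and not called apart for Fdps. For Mvk and Fdft1 it was AI, day 12, VEH and AI+E2, with AI and day 12 overlapping in both and day 12 and VEH not called apart for Mvk. The spread within groups was small beside these differences in most cases, with SDs of 0.033 to 0.197 apart from Idi1 in VEH. No single array was highest or lowest of its group for all 6 enzymes. The most one-sided were AI replicate 3 and day 12 replicate 1, each lowest for 4.

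Genes whose pattern over the 12 arrays was most like each enzyme were found by the root mean square difference of their log2 values, each gene centred on its own mean. For Idi1 these were Msmo1 (0.18) and Cyp51 (0.22), the sterol methyl oxidase and lanosterol demethylase of the cholesterol pathway. For Fdps they were Sc5d (0.16), a sterol desaturase, and Scnn1b (0.21), a subunit of the epithelial sodium channel. The nearest to Mvd were Shisa4 (0.095) and Aacs (0.10), acetoacetyl-CoA synthetase. For Fdft1 they were Elovl6 (0.15), a fatty acid elongase, and Nr1d1 (0.17), a nuclear receptor of the circadian clock. Pmvk lay nearest to Chp2 (0.12) and Xpnpep2 (0.13), and Mvk to Atg4c (0.089), an autophagy protease, and Ifrd2 (0.094). The measure favours flat genes for a flat pattern, and the members' own root mean square deviations were 0.23 for Mvk, 0.32 for Pmvk, 0.60 for Mvd, 1.31 for Idi1, 0.76 for Fdps and 0.65 for Fdft1. Among the enzymes themselves the closest pair was Mvk and Pmvk (0.30) and the most distant Mvk and Idi1 (1.22).

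Upstream of mevalonate, 1 gene is described. Acat2, the cytosolic acetoacetyl-CoA thiolase, had 10.48, 10.49 and 10.53 in AI arrays, against 8.79, 8.98 and 8.85 in VEH arrays. It rose by 1.63 in AI and fell by 1.00 in AI+E2 against AI, and in both comparisons was called in the same direction as the 6 enzymes. In AI+E2 it stayed 0.63 above VEH.

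Downstream of squalene, 11 of 12 listed genes of cholesterol synthesis were measured. In AI against VEH 9 were called higher, where 5.91% of all genes were, and 1 lower, where 11% were, with a median of 1.94, and the enzymes that rose included Cyp51 (3.21), Msmo1 (3.04), squalene epoxidase Sqle (2.94) and lanosterol synthase Lss (1.94). Cyp51 had 11.94, 12.01 and 11.80 in AI arrays, against 8.70, 8.60 and 8.82 in VEH arrays, and Sqle had 10.93, 10.87 and 10.73, against 7.99, 7.77 and 7.95. Neither overlapped. Hsd17b7 was lower in AI by 0.21 (adjusted p = 0.0251), and Lbr, at -0.053, did not pass, both named after their values were seen. Hsd17b7 encodes an enzyme that also converts estrone to estradiol and is known from the rat CL as a protein associated with the prolactin receptor. In AI+E2 against AI 9 of the 11 were called lower, where 4.13% of all genes were, and 0 higher (1 at an unadjusted p under 0.05 and 0 by the methods' t-test), with a median of -1.04. In AI+E2 against VEH 8 were called higher, where 6.11% of all genes were, and 0 lower by limma (0 also at an unadjusted p under 0.05 and by the methods' t-test), with a median of 0.92, and the 3 that did not pass were Lbr, Hsd17b7 and Dhcr7. A second quantile normalization called 1 of the 11 lower. In VEH against day 12 9 were called lower (5 by the methods' t-test), where 3.23% of all genes were, and 0 higher by limma (0 also at an unadjusted p under 0.05 and by the methods' t-test), with a median of -1.54.

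Outside the sterol branch, 16 of 20 listed genes were measured. The list covers protein prenylation, the later processing of prenylated proteins, and isoprenoid steps towards dolichol, ubiquinone, heme A or transfer RNA. In AI against VEH limma called 0 higher (1 at an unadjusted p under 0.05, 0 by the methods' t-test) and 1 lower, Zmpste24, a protease that trims prenylated proteins (-0.37, adjusted p = 7.3e-04), and the median was -0.043. Over all genes 5.91% were called higher and 11% lower, so these counts are near the background and are no result about the list. Ggps1, which lengthens farnesyl to geranylgeranyl diphosphate, had 5.87, 5.93 and 5.80 in AI arrays, against 6.03, 5.83 and 6.10 in VEH arrays, and these overlapped (-0.12, adjusted p = 0.318). Fntb, the farnesyltransferase beta subunit, differed by 0.13 (adjusted p = 0.121). In AI+E2 against AI 2 were called higher, where 8.65% of all genes were, Srd5a3, a polyprenol reductase of dolichol synthesis (0.47), and Zmpste24 (0.35). There 0 were called lower (1 at an unadjusted p under 0.05 and 1 by the methods' t-test), where 4.13% of all genes were. In VEH against day 12 limma called 0 of the 16 in either direction, where 6.91% of all genes were called higher and 3.23% lower. Of the 16, 0 passed an unadjusted p under 0.05 and the methods' t-test called 0, and the median was -0.0064. These counts too are no result about the list.

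Among genes that sense, take up or export sterol, 15 of 18 were measured, and AI against VEH had 4 called higher and 4 lower (2 and 1 by the methods' t-test), where 5.91% of all genes were called higher and 11% lower, with a median of -0.018. Those higher included Insig1, which holds SREBP factors in the endoplasmic reticulum and is itself their target, with 12.01, 11.95 and 11.80 in AI arrays, against 9.94, 9.87 and 10.13 in VEH arrays (1.94). Srebf2, the factor of cholesterol synthesis genes, rose by 0.70 and Stard4, a sterol carrier, by 0.72. Abca1, a cholesterol exporter, fell by 0.79, with 8.27, 8.45 and 8.36 in AI arrays, against 9.01, 9.18 and 9.27 in VEH arrays. In AI+E2 against AI, Insig1 fell by 1.35, Srebf2 by 0.41 and Stard4 by 0.49, while Abca1 rose by 0.64, among 4 called higher and 3 lower in the list (2 and 2 by the methods' t-test), where 8.65% of all genes were called higher and 4.13% lower. Against VEH, AI+E2 still had Insig1 higher by 0.59 and Srebf2 by 0.29. In VEH against day 12, Insig1 fell by 1.72, Srebf2 by 0.54 and Stard4 by 0.44, and Abca1 rose by 0.76, among 3 called lower and 2 higher (1 and 0 by the methods' t-test), where 3.23% of all genes were called lower and 6.91% higher.

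The ketone body genes share acetoacetyl-CoA and HMG-CoA with the pathway, and 3 of 5 were measured. In AI against VEH 1 was called higher, where 5.91% of all genes were, Bdh1, 3-hydroxybutyrate dehydrogenase (0.58, adjusted p = 6.68e-04), and the others were Oxct1 at 0.13 (adjusted p = 0.155) and Acat1 at -0.039 (adjusted p = 0.825). In AI+E2 against AI limma called 0 of the 3 (1 at an unadjusted p under 0.05, 0 by the methods' t-test), where it called 8.65% of all genes higher and 4.13% lower.

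**Figure D4:**
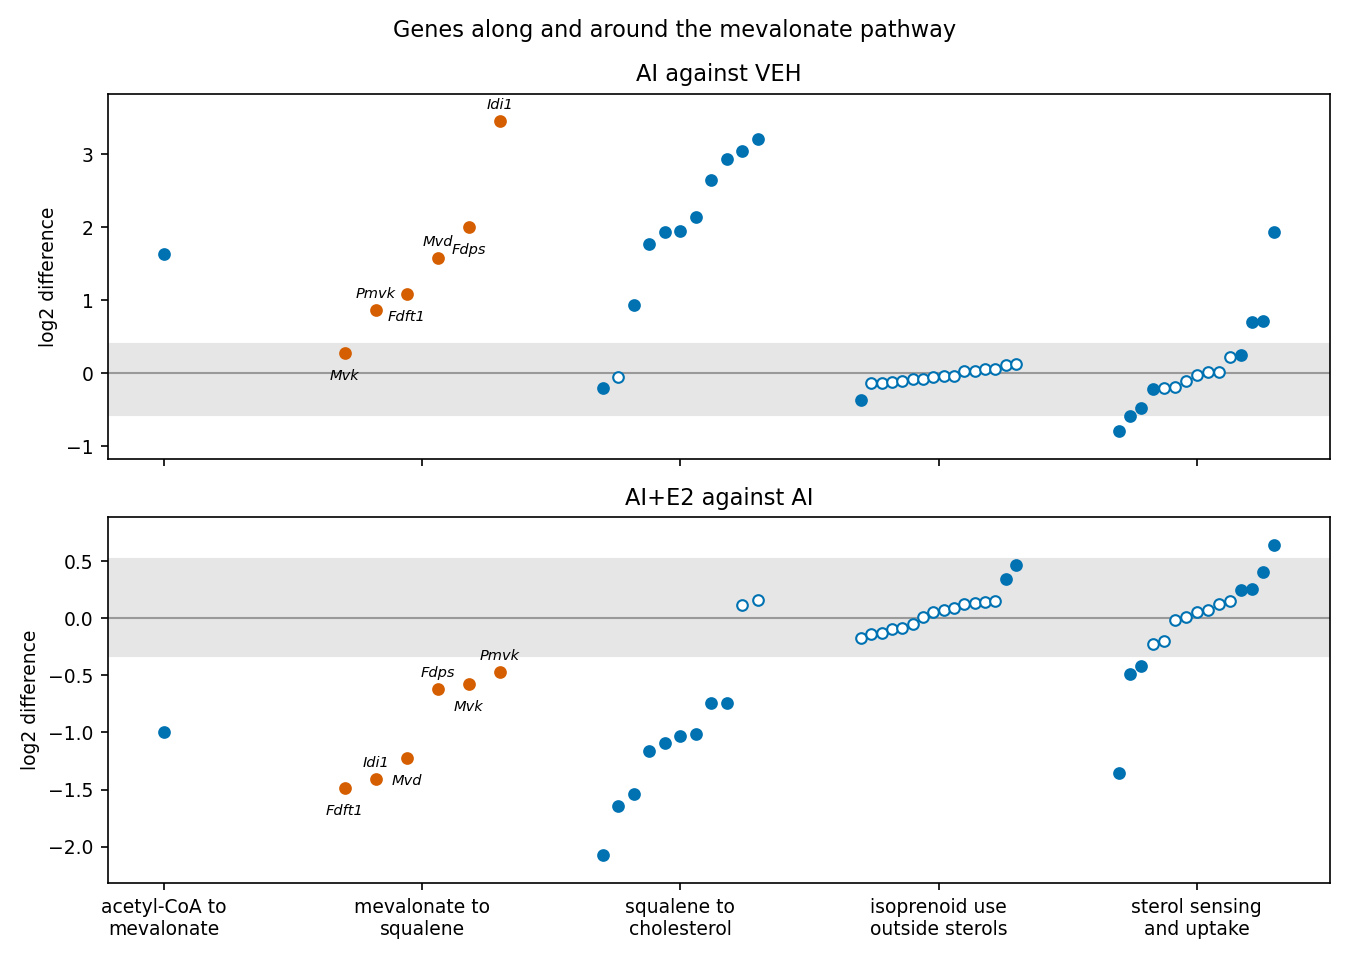
Log2 differences of genes along and around the pathway, AI against VEH above and AI+E2 against AI below, each point a gene, filled where called at an adjusted p under 0.05, with the middle 95% of all genes shaded. The 6 enzymes (named) and 9 of 11 genes after squalene lie above 0 in the upper panel and below 0 in the lower one. Of 16 isoprenoid genes outside the sterol branch, 1 was called in AI against VEH, where 5.91% of all genes were called higher and 11% lower. That count is near the background and is no result about the list.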

How the data were processed

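The authors hybridized RNA of single rats to Affymetrix Rat Gene ST arrays and, per the paper and the submitters' processing notes, normalized them by RMA in R 2.12.2. The deposited values are log2 RMA values of 29214 probe sets, used as they are. RMA subtracts a background, makes the array distributions equal and takes 1 value per probe set, which can compress large differences. The number of arrays limits the precision. The sources used here do not say which arrays entered 1 normalization.

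Symbols came from the platform annotation, in which 15310 probe sets had 1 symbol, 323 several and 13581 none, and 15279 were found in RefSeq. For 527 genes with more than 1 probe set the one of highest mean was used, leaving 14506 genes and no missing value. Probe sequences were not used, so near-identical copies of a gene were not examined. limma 3.58.1 in R 4.3.3 was fitted over all 12 arrays with 4 group means (8 residual and 6.66 prior degrees of freedom, default eBayes), with Benjamini-Hochberg adjustment over all genes and calls at an adjusted p under 0.05. Lists were described by counts and medians. The error of a percentage left came from first-order propagation. The fit was tested on data simulated for AI and VEH (14506 genes, 5 simulations) and recovered 94.4% of genes changed 1.5-fold, 98.4% of those changed 2-fold and 100% at 3-fold and 4-fold.

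The members and lists were chosen with earlier results of these data known. Named were the 6 enzymes, up to 4 genes of each other list with the smallest p in AI against VEH, and the 2 genes nearest to each enzyme. Dhcr7, Hsd17b7 and Lbr were named after their values were seen. Alternatives were a second quantile normalization, median centring, filters on dim genes, all probe sets, the mean of probe sets, a fit on the 2 groups alone, eBayes with trend and robust options, the replicate number as a block, the methods' t-test (two-sided, equal variance, applied in the methods with Benjamini-Hochberg adjustment and a 2-fold threshold) and leaving out each array. RefSeq promoters (GRCr8) were searched on both strands in Python 3.11.15, and figures were drawn with matplotlib 3.10.9.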

Additional observations from a re-analysis of the deposited data

How the results depend on the processing

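Of 576 values of the 6 enzymes under the alternatives, 550 kept their direction and their side of the threshold. All 6 were called in AI+E2 against AI under every alternative, and likewise in AI against VEH apart from Mvk under the methods' t-test in AI against VEH (0.28, adjusted p = 0.0587). That test, which takes each gene's spread from 6 arrays alone, called 2 enzymes in AI+E2 against VEH, 1 in VEH against day 12, 0 in AI against day 12 (4 at an unadjusted p under 0.05) and 1 in AI+E2 against day 12. Of all 14506 genes it called 564, 57, 45 and 362 in these comparisons, in the same order. It left uncalled, in AI+E2 against VEH, Mvk (-0.29), Pmvk (0.39), Mvd (0.35) and Fdft1 (-0.39). In VEH against day 12 these were Pmvk (-0.42), Mvd (-0.75), Idi1 (-2.76) and Fdft1 (-1.02). In AI against day 12 they were Pmvk (0.44), Mvd (0.82), Idi1 (0.69) and Fdps (0.43), and in AI+E2 against day 12 Mvk (-0.50), Mvd (-0.40) and Idi1 (-0.72). At an adjusted p under 0.05 with 2-fold, as in the methods, it called 4 of the 6 in AI against VEH, 3 in AI+E2 against AI and 2 in AI+E2 against VEH, and against day 12 it called 1 in VEH (3 without adjustment), 0 in AI and 1 in AI+E2. Of all 14506 genes, 137, 105, 86, 27 (68 without adjustment), 8 and 57 met this rule, in the same order.

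A second quantile normalization added Mvk in VEH against day 12 (-0.25) and Fdps in AI+E2 against day 12 (-0.27), and the cause was not tested. Leaving out 1 array at a time, with the spread still pooled over the groups, Mvd in AI+E2 against VEH lay between 0.27 and 0.40, Fdft1 between -0.50 and -0.31, Idi1 in AI against day 12 between 0.67 and 0.74, and Pmvk in AI+E2 against day 12, called in no fit, between -0.094 and 0.019, its sign turning to 0.019 without day 12 replicate 1. Of 960 counts of the other lists, 864 stayed within 1.5 times.

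Replicate numbers did not pair the arrays. Deviations of same-numbered arrays correlated between -0.49 and 0.34 over 18 pairs of arrays, and 4 exceeded 0.1. Those of differently numbered arrays correlated between -0.39 and 0.46 over 36 pairs, and 8 exceeded 0.1. The highest was between AI replicate 2 and AI+E2 replicate 3. Day 12 replicate 3 correlated with both, at 0.40 with AI replicate 2 and 0.34 with AI+E2 replicate 3. The lowest, -0.49, was between AI replicate 2 and AI+E2 replicate 2. A block by replicate number does not group the positively correlated arrays together, and the cause was not tested. With the replicate number as a block, 2226 genes were called in AI against VEH, against 2458 without it, and in the 6 comparisons the count was 0.84 to 0.91 times that without the block. The block changed the call of no enzyme.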
